A study of Drosophila melanogaster with 28 samples.

Results

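Box C/D methylation guide snoRNAs were taken as the genes of the RNA-seq table whose name begins with snoRNA:Me and whose FPKM value exceeded 10 in at least 1 of the 7 time points. Of 103 genes with that name, 51 met the rule, among 17783 genes in the table and 7051 genes over the same FPKM minimum. By the target written in their names, 34 of the 51 guides act on 28S rRNA, 15 on 18S rRNA, 1 on 5.8S rRNA and 1 on U6 snRNA. Ovaries came from bam mutant females carrying a heat shock inducible bam transgene, collected without heat shock (no HS) and at 0.5, 5, 9, 18, 28 and 38 h after heat shock (AHS). All groups, no HS included, shared 1 genotype: bam86 (bamΔ86 in the study's methods) on both homologues, 1 of which also carried P{w[+mC]=hs-bam.O}11d, with nosP-GAL4-NGT40 present in 1 copy. The heat shock was 1 h at 37°C and 2 h at 34°C before the return to 25°C. The no HS ovary is filled with germ cells held in a stem cell-like state, and the authors assign the later time points to the cystoblast (5 h), the 2-cell (9 h), 4-cell (18 h), 8-cell (28 h) and 16-cell cyst (38 h), with mixed stages late in the course. Heat shock and time cannot be told apart from differentiation in this design, since no heat-shocked ovaries without the transgene enter these values.

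Each gene has 1 FPKM value (fragments mapped to a gene, relative to its length and to all mapped fragments) per time point, which the authors combined over 2 libraries, with 95% confidence bounds. There is therefore no SD, no replicate count behind a mean and no test, and the depth of the libraries is unknown from these values. The transgene's bam RNA stood at 23.7 FPKM at no HS, 1053 (0.5 h), 181 (5 h), 74.3 (9 h), 46.5 (18 h), 24.7 (28 h) and 18.1 (38 h AHS). The germline marker vas ran between 184 and 211 FPKM and the somatic marker Fas3 between 168 and 218 FPKM over the 7 time points. Both the germline and the somatic cells of the whole ovary thus contribute RNA. Other markers were less even. Germline nos had 83.3 FPKM at no HS and 28.5 at 9 h AHS, and piwi 224 at no HS and 348 at 38 h AHS. Somatic Wnt4 had 14.5 FPKM at no HS and 4.95 at 0.5 h AHS. Germline aub ran between 85.7 and 100 FPKM, somatic tj between 85.9 and 128 and ptc between 8.42 and 12.4. Chorion transcripts, marks of late egg chambers that the paper set aside as contaminants, ran unevenly. Cp36 had 11.8 FPKM at no HS, 3.17 (0.5 h), 54.0 (5 h), 4.48 (9 h), 41.5 (18 h), 81.5 (28 h) and 95.3 (38 h AHS). Cp15 had 1.06 FPKM at no HS, 10.4 (0.5 h), 15.0 (5 h), 23.6 (9 h), 10.9 (18 h), 1.10 (28 h) and 75.2 (38 h AHS). In whole ovaries, fewer cells of a type and less RNA per cell cannot be told apart.

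Box C/D snoRNAs are short nucleolar RNAs, in flies mostly cut out of introns of a host transcript. They hold a C box near the 5′ end and a D box near the 3′ end, which the proteins Hoip, Nop5, Nop56 and Fibrillarin bind. A stretch just upstream of the D box, or of an internal copy of it (D′), pairs with the target RNA. Fibrillarin adds a methyl group to the 2′ oxygen of the target nucleotide that pairs with the fifth base upstream of the box. The methylated positions lie mainly in the functional core of the ribosome. Guide names give the target, the methylated nucleotide and its position, and a final letter marks copies for the same site.

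Of the 51 guides, 48 matched a RefSeq gene of Release 6 (dm6), and they were 67 to 113 nt long with a median of 79.5 nt. TGATGA, the consensus C box, was searched on the RNA strand in the first 20 bases and CTGA, the consensus D box, in the last 15 bases. TGATGA was present in 39 of the 48 guides (81.2%), CTGA in 46 (95.8%) and both in 38 (79.2%). In the same windows of 106 annotated box H/ACA guides, which direct pseudouridylation and use other boxes, TGATGA was found in 0 (0%) and CTGA in 2 (1.89%). The 12 sequences below are shown because the levels described next turn on them: abundant guides, copies that differ in level, and guides that come and go. TGATGA and CTGA in those windows are in capitals, and the strand is that of the RNA.
snoRNA:Me18S-C1096 (chr3R:11222405-11222489, +): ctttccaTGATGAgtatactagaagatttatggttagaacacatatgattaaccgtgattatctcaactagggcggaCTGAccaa
snoRNA:Me18S-C1831 (chr2L:4457603-4457674, -): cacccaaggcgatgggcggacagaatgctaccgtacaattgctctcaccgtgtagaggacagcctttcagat
snoRNA:Me18S-A1576 (chr2L:9894795-9894907, -): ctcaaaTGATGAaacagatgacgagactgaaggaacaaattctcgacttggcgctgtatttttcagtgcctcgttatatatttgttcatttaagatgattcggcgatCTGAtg
snoRNA:MeU6-A47 (chrX:21386845-21386935, -): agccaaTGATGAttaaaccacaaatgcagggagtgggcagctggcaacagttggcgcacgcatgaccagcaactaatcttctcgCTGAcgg
snoRNA:Me28S-A2634b (chr3L:1666665-1666745, -): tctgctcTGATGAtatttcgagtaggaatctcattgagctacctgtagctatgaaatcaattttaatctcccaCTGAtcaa
snoRNA:Me28S-A2634c (chr3L:1666437-1666522, -): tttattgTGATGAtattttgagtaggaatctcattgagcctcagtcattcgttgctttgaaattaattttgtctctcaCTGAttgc
snoRNA:Me28S-G2017 (chr3R:11224308-11224400, +): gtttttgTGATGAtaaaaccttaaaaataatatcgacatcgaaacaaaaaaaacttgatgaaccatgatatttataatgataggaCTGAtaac
snoRNA:Me18S-U1356a (chr3L:20454007-20454085, +): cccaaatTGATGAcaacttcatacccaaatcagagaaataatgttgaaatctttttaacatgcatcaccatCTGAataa
snoRNA:Me18S-U1356b (chr3L:20454246-20454324, +): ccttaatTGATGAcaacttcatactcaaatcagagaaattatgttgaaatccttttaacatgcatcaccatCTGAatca
snoRNA:Me18S-U1356c (chr3L:20454496-20454574, +): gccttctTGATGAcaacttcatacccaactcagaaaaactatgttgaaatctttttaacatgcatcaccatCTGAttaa
snoRNA:Me5.8S-G74 (chr3L:829922-829992, -): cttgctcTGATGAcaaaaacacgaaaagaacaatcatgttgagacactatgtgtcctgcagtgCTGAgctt
snoRNA:Me18S-A1806 (chr3L:7639717-7639794, +): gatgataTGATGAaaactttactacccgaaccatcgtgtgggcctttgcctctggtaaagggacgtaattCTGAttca

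Me18S-C1831 is the one printed guide with neither motif in its annotated sequence, although its FPKM was among the highest of all guides. The target sites were read from RefSeq as well. For 16 guides to 18S, 5.8S or U6 RNA, a run of at least 9 consecutive pairs (Watson-Crick or G-U) covered the target position in the guide's name, in 7 of them with CTGA starting 5 bases past the pairing base. Over all 28160 combinations of these guides with a position of their target, 8.13% had such a run and 0.185% had the run with CTGA placed that way. The RefSeq target held the base in the guide's name at that position for 11 of the 16. Guide and target are shown for 4 such runs, each 5′ to 3′, with the target numbered from its RefSeq start.
Me18S-C1096 element: aactagggcgg
18S rRNA 1093 to 1103: ccgccctagtt
Me18S-A1806 element: agggacgtaatt
18S rRNA 1802 to 1813: gattacgtccct
Me5.8S-G74 element: tatgtgtcctgcagt
5.8S rRNA 71 to 85: actgcaggacacatg
MeU6-A47 element: ctaatcttctc
U6 snRNA 44 to 54: gagaagattag

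The 51 guides fell into a small set seen throughout and a larger set listed at 0 for part of the course. Of the 51, 14 had an FPKM above 0 at all 7 time points: 5 of the 15 18S guides, 8 of the 34 28S guides and the U6 guide. The other 37 were listed at 0 at 1 or more time points, and 21 of the 51 (3 for 18S and 18 for 28S) were above 0 at only 1 or 2. Of the 357 values of the 51 guides, 162 (45.4%) were listed at 0, with 38.1% of the 18S values and 49.6% of the 28S values. The 103 box H/ACA guides over 10 FPKM, processed in the same way, had 1 of 721 values at 0 (0.139%), and all 7051 genes over 10 FPKM had 0.885% of their values at 0. A listed 0 can be a failed estimate as well as an RNA that was not sampled, although every estimate of the 51 guides carries the status OK and all 162 zeros have bounds of 0 to 0.

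The number of guides listed at 0 was 21 of 51 at no HS, 21 (0.5 h), 20 (5 h), 23 (9 h), 21 (18 h), 29 (28 h) and 27 (38 h AHS). For 28S the zeros numbered 15 of 34 at no HS, 13 (0.5 h), 16 (5 h), 18 (9 h), 14 (18 h), 21 (28 h) and 21 (38 h AHS). For 18S they numbered 6 of 15 at no HS, 7 (0.5 h), 3 (5 h), 5 (9 h), 6 (18 h), 8 (28 h) and 5 (38 h AHS). The most zeros were thus at 28 h for both targets, shared with 38 h AHS for 28S, and 12 guides had a value at a single time point. Of these, 4 were seen only at no HS, 2 only at 0.5 h, 1 only at 5 h, 2 only at 9 h, 3 only at 18 h and 0 only at 28 or 38 h AHS.

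**Figure D1:**
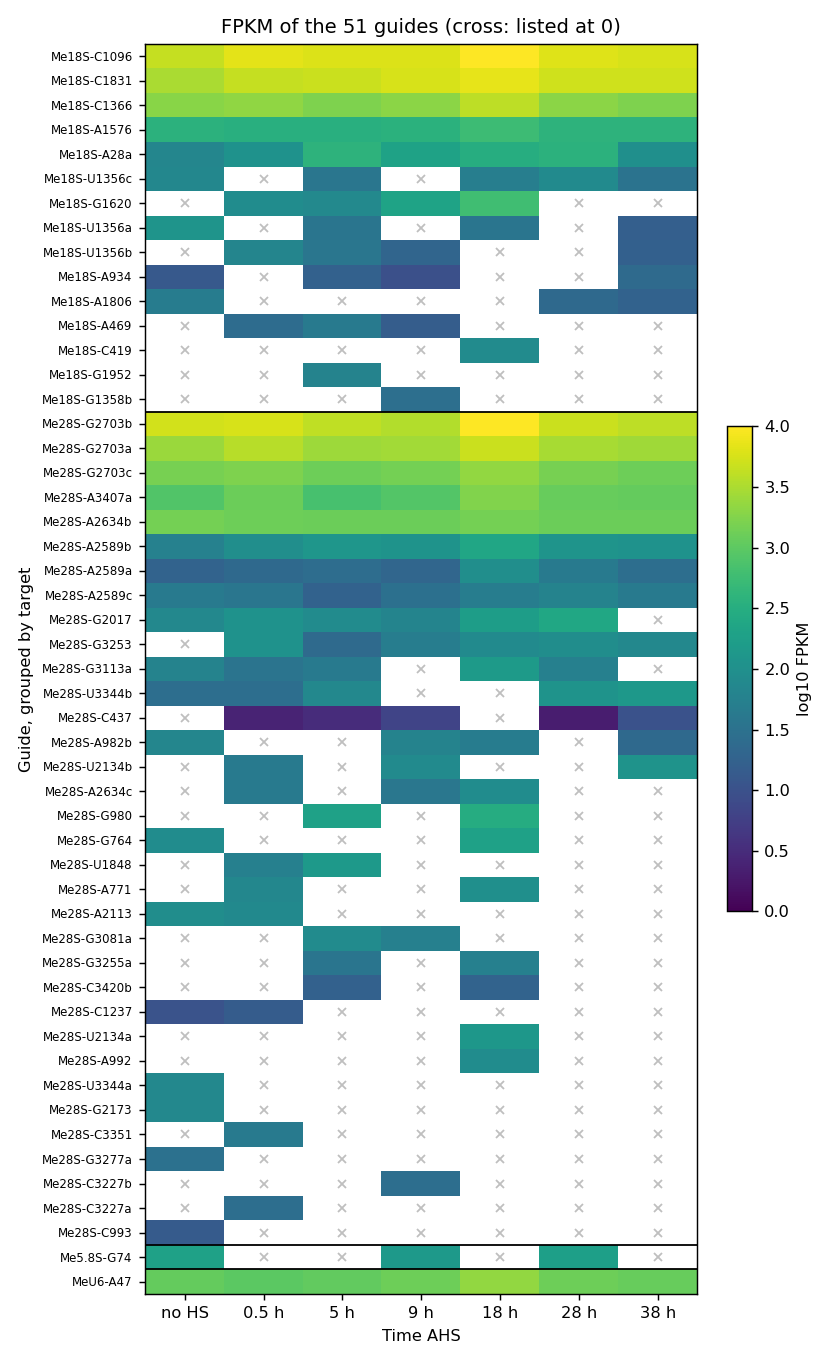
FPKM of the 51 guides (rows, grouped by target with 18S at the top, then 28S, 5.8S and U6) at the 7 time points (columns), as log10 FPKM in colour, with a cross where the value is listed at 0. The values over 1000 FPKM all lie in the 14 rows without a cross, and 37 rows have 1 or more crosses.

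The zeros went with low levels and short length. The highest FPKM of each guide lay between 61.1 and 10369 among the 14 guides above 0 throughout, with a median of 2001, and between 10.2 and 589 among the other 37, with a median of 82.7. Annotated length had a median of 89 nt in the 14 guides and 78 nt in 34 of the 37. All 5 guides of 100 nt or longer, 7 of 19 guides of 80 to 99 nt and 2 of 24 guides of 60 to 79 nt were above 0 at all 7 time points. The exceptions among the short ones were Me18S-C1831 (72 nt) and Me18S-A28a (67 nt). Annotated box H/ACA guides were longer, at 124 to 268 nt with a median of 140 nt, and 102 of the 103 were above 0 throughout. All 48 annotated box C/D guides were shorter than the 150 nt reads, and how Cuffdiff's length correction or the authors' removal of reads that match non-coding RNAs acts on RNAs of this size was not tested.

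**Figure D2:**
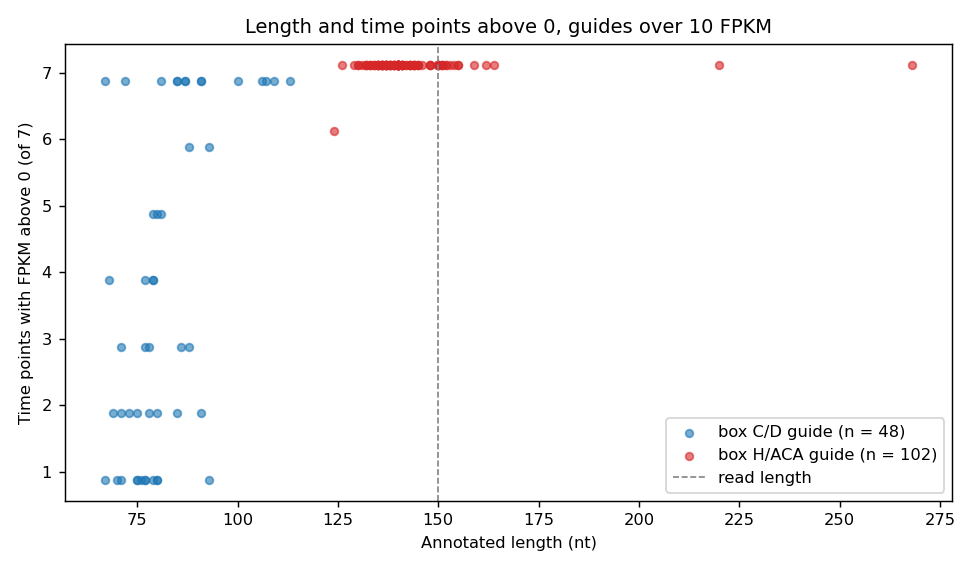
Number of time points with an FPKM above 0 (vertical axis, of 7) against annotated length in nt (horizontal axis) for 48 box C/D guides (blue, drawn slightly below the whole number) and 102 annotated box H/ACA guides (red, drawn slightly above). The box C/D guides of 100 nt or more are all at 7, and the shorter ones spread over 1 to 7.

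Summed FPKM of the 51 guides was 23889 at no HS, 29600.3 (0.5 h), 25689 (5 h), 26614 (9 h), 47297 (18 h), 28407 (28 h) and 25127 (38 h AHS). The sum was thus highest at 18 h AHS, 1.98 times that at no HS. As a share of the FPKM of all genes it was 2.46% at 18 h AHS and 2.13% at no HS, and the summed FPKM of the 7051 genes over 10 FPKM was itself 1.72 times that at no HS. The 14 guides above 0 throughout held between 95.4% and 98.2% of the sum at every time point. For the 18S guides the sum was 22622 FPKM at 18 h AHS and 10179.8 FPKM at no HS (2.22-fold), and without Me18S-C1096, the highest of them, 2.21-fold. For the 28S guides it was 22399.8 FPKM at 18 h AHS and 12399.5 FPKM at no HS (1.81-fold), and 1.72-fold without Me28S-G2703b. As a share of the FPKM of all genes, the 18S sum was 0.908% at no HS, 1.17% at 18 h and highest at 9 h AHS (1.30%). The 28S share was 1.106% at no HS, 1.163% at 18 h and highest at 0.5 h AHS (1.172%). By share, neither target was thus highest at 18 h AHS.

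Among the 18S guides, Me18S-C1096 had the highest median, 6187 FPKM. It lies in an intron of RpL3, a protein of the large ribosomal subunit. Its values were 4453 FPKM at no HS, 6815 (0.5 h), 6117 (5 h), 6187 (9 h), 9972 (18 h), 6493 (28 h) and 5704 (38 h AHS). Every later value was above that at no HS, and 18 h AHS was highest, 2.24-fold over no HS. The deposited bounds run from 0 to 47360 FPKM at no HS and from 0 to 75252 at 18 h AHS, so the difference lies well within them.

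Me18S-C1831, in an intron of RpL27A, had 3052 FPKM at no HS, 4482 (0.5 h), 4835 (5 h), 5816 (9 h), 7085 (18 h), 5099 (28 h) and 5101 (38 h AHS). It was the only 18S guide above 0 throughout that passed the 1.6-fold threshold upward at 38 h AHS, at 1.67-fold over no HS, again with bounds that reach 0 at every time point. Me18S-C1366, from the non-coding snoRNA host gene Uhg5, had 1980.3 FPKM at no HS, 2141 (0.5 h), 1711 (5 h), 1983 (9 h), 3929 (18 h), 1998 (28 h) and 1708 (38 h AHS). Its 18 h value was the highest, and the other 6 spanned only 1.25-fold. The bounds at 18 h AHS, 2166 to 5692 FPKM, overlapped those at no HS, 942 to 3018 FPKM. Me18S-A1576, from Uhg2, was lower but as even, with 329 to 392 FPKM at the 6 other time points and 562 FPKM at 18 h AHS.

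Me18S-A28a, from Uhg1, had a different course, with 67.9 FPKM at no HS, 110.2 (0.5 h), 390.2 (5 h), 203 (9 h), 309.8 (18 h), 371 (28 h) and 99.5 (38 h AHS). Its 5 h value was the highest, and at 18 h AHS it was 4.56-fold over no HS. Bounds were narrow at some time points, 296 to 323 FPKM at 18 h AHS and 59.2 to 76.6 FPKM at no HS, and at 5 h they ran from 0 to 4547 FPKM. It was the only guide above 0 throughout whose bounds at 18 h AHS cleared those at no HS.

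The 10 other 18S guides were listed at 0 at some time point and reached at most 589 FPKM. Me18S-G1620, which shares Uhg2 with Me18S-A1576, had 88.5 FPKM at 0.5 h, 75.1 (5 h), 211 (9 h) and 589 (18 h AHS), and was listed at 0 at no HS, 28 h and 38 h. Me18S-A1806, the one annotated guide with no host gene on its strand, had 47.9 FPKM at no HS, 22.9 (28 h) and 17.9 (38 h AHS) and was listed at 0 at the 4 time points between. Me18S-C419 (86.1 FPKM at 18 h) and Me18S-G1952 (62.6 FPKM at 5 h) had 1 value each.

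Me18S-U1356a, b and c, the copies printed above from introns of Uhg8, share 87.5% to 92.4% of their aligned bases. Me18S-U1356a had 118 FPKM at no HS, 36.3 (5 h), 35.8 (18 h) and 16.3 (38 h AHS). Me18S-U1356b had 65.6 FPKM at 0.5 h, 36.7 (5 h), 20.0 (9 h) and 17.1 (38 h AHS). Me18S-U1356c had 72.1 FPKM at no HS, 37.5 (5 h), 52.0 (18 h), 82.7 (28 h) and 32.8 (38 h AHS). All remaining values of the 3 copies were listed at 0, so that at each time point at least 1 copy had a value. How reads were divided between near-identical copies is not given in the sources used here, and the level of any 1 copy is uncertain for that reason.

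Among the 28S guides, the 3 copies for G2703 in introns of Uhg5 had the highest medians. Me28S-G2703b had 5393 FPKM at no HS, 5809 (0.5 h), 4151 (5 h), 3422 (9 h), 10369 (18 h), 4824 (28 h) and 3953 (38 h AHS). Me28S-G2703a had 2489 FPKM at no HS, 3684 (0.5 h), 2633 (5 h), 2798 (9 h), 4771 (18 h), 2969.8 (28 h) and 2646 (38 h AHS). Me28S-G2703c had 1495 FPKM at no HS, 1699 (0.5 h), 1313 (5 h), 1439 (9 h), 2241 (18 h), 1512 (28 h) and 1295 (38 h AHS). All 3 were highest at 18 h and next highest at 0.5 h AHS, with 18 h at 1.92-fold, 1.92-fold and 1.50-fold over no HS for copies b, a and c. For copy b the bounds were 5659 to 15080.0 FPKM at 18 h AHS and 1874 to 8913 FPKM at no HS, which overlap. The 3 copies share 53.9% to 67.8% of their aligned bases, less than the U1356 copies.

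Me28S-A2634b and Me28S-A2634c lie in introns of RpL23A and share 75.9% of their aligned bases, yet their values were far apart. Me28S-A2634b was the steadiest guide, with 1455 FPKM at no HS, 1290.1 (0.5 h), 1241 (5 h), 1252 (9 h), 1457 (18 h), 1274 (28 h) and 1269 (38 h AHS), a span of 1.17-fold. Me28S-A2634c had 42.9 FPKM at 0.5 h, 39.2 (9 h) and 87.8 (18 h AHS) and was listed at 0 at the other 4. The bounds of Me28S-A2634b reach 0 at every time point and ran from 0 to 25503 FPKM at no HS. Those of Me28S-A2634c ran from 0 to 5183 FPKM at 18 h AHS. Me28S-A3407a from Uhg1 had 832 FPKM at no HS, 1257 (0.5 h), 695 (5 h), 863 (9 h), 1762 (18 h), 1156 (28 h) and 1134 (38 h AHS), and was the highest 28S guide outside the G2703 and A2634 sites.

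Guides for A2589 sit in introns of dom, which encodes a chromatin remodeller. Me28S-A2589b had 56.6 FPKM at no HS, 93.8 (0.5 h), 125 (5 h), 114 (9 h), 236 (18 h), 117 (28 h) and 111 (38 h AHS). It was over 1.6-fold above no HS at every later time point, with bounds that reach 0 each time. Me28S-A2589a had 18.7 FPKM at no HS, between 20.7 and 45.0 at the other later time points and 95.8 at 18 h AHS, a 5.13-fold difference between 18 h and no HS that was the largest among the guides above 0 throughout. Me28S-A2589c took another course, with its lowest value of 18.2 FPKM at 5 h and its highest of 61.1 FPKM at 28 h AHS.

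Among the 26 28S guides listed at 0 somewhere, the highest single value was 301 FPKM, for Me28S-G980 at 18 h AHS, and its only other value was 197 FPKM at 5 h. Me28S-G2017 shares RpL3 with Me18S-C1096 and had 64.0 to 241 FPKM at 6 time points, with the peak at 28 h, and was listed at 0 at 38 h AHS. Me28S-G3253, in an intron of RpS9, was listed at 0 at no HS and had 24.1 to 110.1 FPKM at all 6 later time points. The guides with the most zeros by the naming rule were Me28S-U2134a (132 FPKM) and Me28S-A992 (86.8 FPKM), each seen only at 18 h AHS.

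Both guides with another kind of target are described in full. MeU6-A47, in an intron of Ddx56, guides methylation of the spliceosomal U6 snRNA and had 1118 FPKM at no HS, 984 (0.5 h), 1088 (5 h), 1317 (9 h), 2276 (18 h), 1306 (28 h) and 1179 (38 h AHS). Its 18 h value was 2.04-fold over no HS, while the other 6 spanned 1.34-fold. The bounds overlapped, from 0 to 6565 FPKM at 18 h AHS and from 0 to 3545 FPKM at no HS. Me5.8S-G74 had 192 FPKM at no HS, 141 (9 h) and 183 (28 h AHS) and was listed at 0 at the 4 time points between and after.

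**Figure D3:**
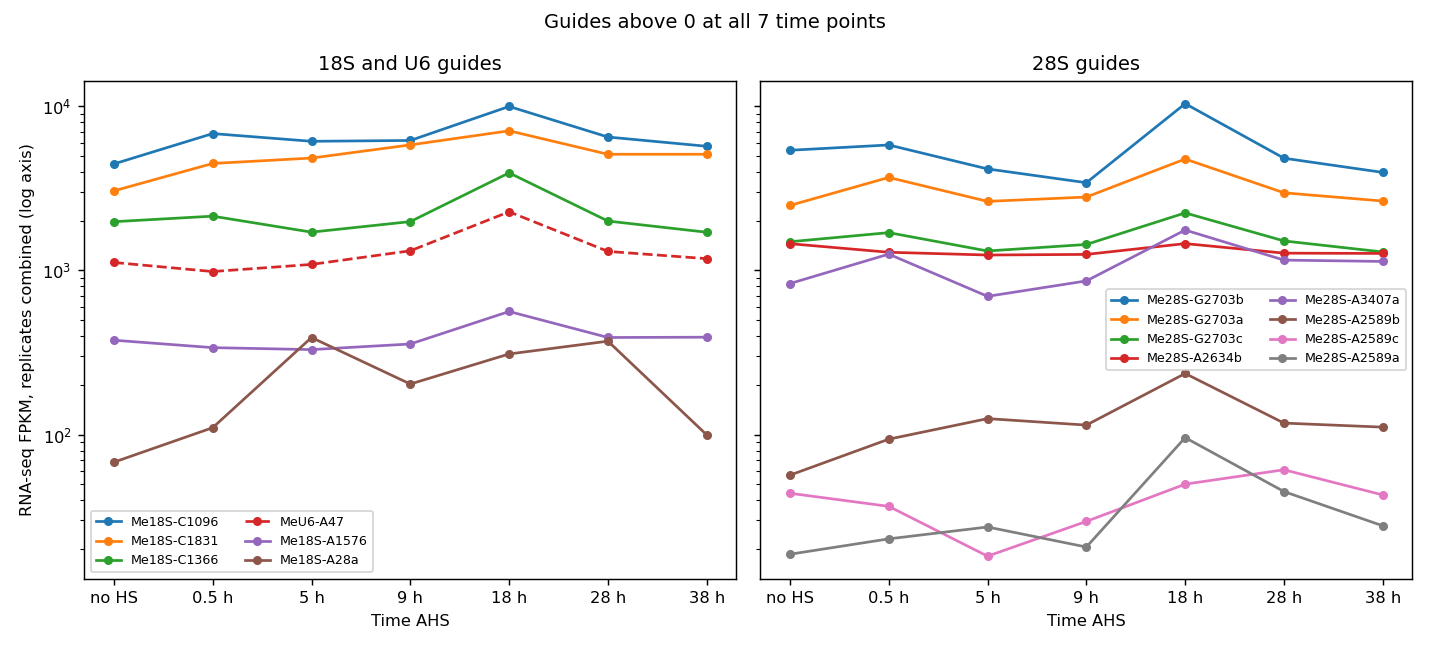
RNA-seq FPKM (log axis) of the 14 guides above 0 at all 7 time points, with 18S and U6 (dashed) guides on the left and 28S guides on the right. Time points are evenly spaced along the horizontal axis and each point is 1 value combined over 2 libraries. All but Me18S-A28a and Me28S-A2589c peak at 18 h AHS.

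To compare time points, a guide was called higher or lower when its FPKM differed over 1.6-fold and exceeded 10 in at least 1 of the time points compared. A value listed at 0 was called when the other exceeded 10 FPKM. At 18 h AHS against no HS, 23 of 51 guides were called higher, against 3.97% of the 7051 genes over 10 FPKM, and 11 lower, against 1.09%. Of the 23, 13 were above 0 at both time points, and by target there were 6 of 15 18S guides and 16 of 34 28S guides. The 23 include 3 guides seen only at 18 h AHS (Me18S-C419, Me28S-A992 and Me28S-U2134a). These met the FPKM minimum through that value alone, so the rule that chose them fixed their direction. The same holds for the 4 guides seen only at no HS, which are among the 11 called lower. Of the 11 called lower, 10 were listed at 0 at 18 h AHS. All 14 guides above 0 throughout were at or above their no HS value at 18 h AHS, by 1.00-fold to 5.13-fold with a median of 2.01-fold, and 10 of them passed 1.6-fold.

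At the other time points most calls rested on a listed 0. At 0.5 h AHS 12 guides were called higher (background 4.68%) and 12 lower (4.21%), and 10 and 11 of these had a 0 on one side. At 5 h AHS 13 were higher (1.22%) and 13 lower (1.65%), with a 0 in 10 of each. At 9 h AHS 12 were higher (1.55%) and 12 lower (2.23%), with a 0 in 9 and 12. At 28 h AHS 7 were higher (2.28%) and 11 lower (1.06%), with a 0 in 1 and 10. At 38 h AHS 8 were higher (2.62%) and 14 lower (1.19%), with a 0 in 4 and 10. With guides at 0 left out, no later time point but 18 h had more than 6 of 51 guides called in a direction. The matching share over all genes was not computed. The 4 guides seen only at no HS are among the lower calls at each of these time points. The 2, 1 and 2 guides seen only at 0.5, 5 and 9 h AHS are among the higher calls there. The membership rule fixed these directions. With such guides included, the share of guides called in each direction was above the background at every time point, so nothing is concluded from that excess. The share of guide values listed at 0 was above the background as well.

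Between neighbouring time points, 24 guides were higher at 18 h AHS than at 9 h (background 3.57%) and 7 were lower (0.440%). At 28 h AHS against 18 h, 3 were higher (0.681%) and 19 were lower (2.50%). At 38 h AHS against 28 h, 6 were higher (1.04%) and 6 lower (0.567%). The 3 guides seen only at 18 h AHS are among the 24 and the 19, and the 2 seen only at 9 h among the 7, through the membership rule. The pairs above 0 on both sides were 13 higher and 0 lower at the first step, 0 higher and 7 lower at the second and 1 higher and 3 lower at the last. For such pairs no share over all genes was computed.

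Among calls with an FPKM above 0 on both sides, few cleared the deposited bounds. At 18 h AHS, 3 of the 13 such guides called higher had bounds that did not overlap those at no HS. The matching share over all genes above 10 FPKM was not computed. Besides Me18S-A28a these were Me28S-G3113a (148.7 FPKM at 18 h AHS and 61.8 FPKM at no HS) and Me28S-G764 (191 FPKM at 18 h AHS and 88.9 FPKM at no HS). The bounds themselves were uneven: of 195 guide values above 0, 91 had a lower bound of 0 and 22 a half-width under 10% of the value, with extremes of 2.47% and 5804%. For Me18S-A1806 the half-width was 1.18 FPKM at all 3 time points with a value, at levels from 17.9 to 47.9 FPKM. Over all genes above 10 FPKM the median half-width was 20.0% of the value, and over the guides 86.9%.

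Called in 1 direction at all 5 time points from 5 to 38 h AHS were 10 guides. The same count was not made over all 7051 genes, so whether 10 of 51 is unusual is not known. Me28S-A2589b and Me28S-G3253 were higher throughout, and neither cleared the bounds at each time point. Me18S-U1356a, Me18S-A1806, Me28S-A2113, Me28S-C1237, Me28S-C993, Me28S-G2173, Me28S-G3277a and Me28S-U3344a were lower throughout. Of these, Me18S-U1356a did not clear its bounds at no HS, 0 to 375 FPKM. Me28S-C993, Me28S-G2173, Me28S-G3277a and Me28S-U3344a had their only value at no HS, at 13.9, 73.99, 31.5 and 74.6 FPKM. They met the FPKM minimum through that value alone, so the rule that chose them fixed their direction. Me28S-A2113 had 90.8 FPKM at no HS and 79.4 FPKM at 0.5 h AHS, and Me28S-C1237 had 10.6 FPKM at no HS and 14.4 FPKM at 0.5 h AHS, after which both were listed at 0. At each listed 0 the bounds are 0 to 0 and add nothing to these calls.

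The higher values at 18 h AHS were shared with other short non-coding RNAs. The median log2 ratio of 18 h AHS to no HS, over genes above 10 FPKM at some time point and above 0 at all 7, was 1.16 for the 5 18S guides and 0.94 for the 8 28S guides. It was 0.92 for 102 box H/ACA guides, 1.11 for 5 orphan box C/D snoRNAs and 0.81 for 4 orphan box H/ACA snoRNAs. For 9 genes whose name begins with snoRNA:U it was 1.14, for 24 snRNAs 1.05, for 8 tRNAs 1.70 and for 4 miRNA genes 0.83. The tRNAs thus had a higher median than either set of guides. It was 0.01 for 6618 genes with a Ribo-seq row, which are mostly protein-coding. Of the 103 box H/ACA guides, 83 (80.6%) were called higher at 18 h AHS against no HS and 2 lower. At 0.5, 5, 9, 28 and 38 h AHS the 18S guides had medians of 0.55, 0.46, 0.47, 0.54 and 0.36, and the 28S guides 0.25, -0.21, -0.00074, 0.36 and 0.03. The 18S guides thus stayed above no HS in the median at all later time points, and the 28S guides did not, but these are 5 and 8 genes, the bounds are wide and the difference between targets was not tested. With all members included and 1 FPKM added to each value, the median was 0 for the 18S guides at 18 h AHS and 0.38 for the 28S guides, as many members are listed at 0 on one side or both, against 0.02 over all 7051 genes.

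**Figure D4:**
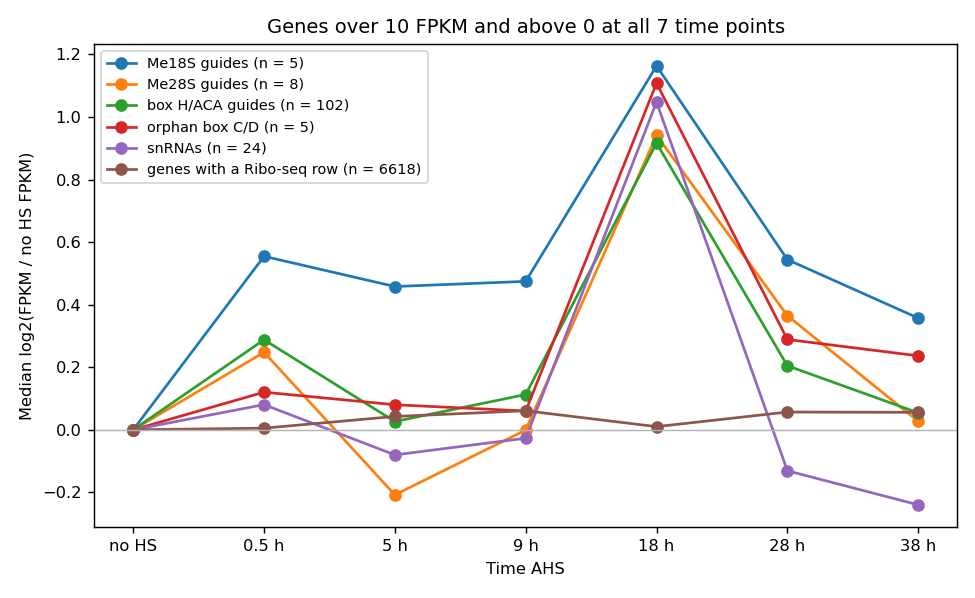
Median log2 ratio of FPKM to the no HS value (vertical axis) at the 7 evenly spaced time points for genes over 10 FPKM and above 0 at all 7, by class with the number of genes in the legend. Each class of short RNA plotted peaks at 18 h AHS between 0.92 and 1.16, and genes with a Ribo-seq row stay near 0.

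Of the 48 annotated guides, 47 lay within another gene on the same strand, 45 in an intron and 2 overlapping an exon of some transcript. The hosts were 5 non-coding Uhg genes with 20 guides, 11 ribosomal protein genes with 14 guides and 8 other genes with 13 guides. By host, 7 of the 20 Uhg guides, 3 of the 14 ribosomal protein guides and 4 of the 13 others were above 0 throughout. By arm, 20 guides lay on 2R, 14 on 3L, 5 on 2L, 5 on 3R and 4 on X. Where genes overlap on 1 strand, the one with the higher FPKM was taken as host.

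Uhg5 held the most guides, with 9 members. The Uhg5 RNA had 24.3 FPKM at no HS, 39.8 (0.5 h), 18.8 (5 h), 24.3 (9 h), 24.4 (18 h), 24.3 (28 h) and 23.0 (38 h AHS). Its 4 guides above 0 throughout, Me18S-C1366 and the G2703 copies, had 2241 to 10369 FPKM at 18 h AHS. The 5 others, Me18S-G1952, Me28S-A992, Me28S-C3227a, Me28S-C3227b and Me28S-U1848, had a value at 1 or 2 time points and at most 143 FPKM. Guides made from 1 transcript thus differed widely in listed level.

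The host RNAs did not share the higher FPKM of the guides at 18 h AHS. Over the 14 guides above 0 throughout and their 8 hosts, the median log2 ratio at 18 h AHS to no HS was 1.01 for guides and 0.0028 for hosts, and each of the 14 guides had the higher ratio. RpL3, host of Me18S-C1096, had 1712 FPKM at 18 h AHS and 1837 FPKM at no HS. RpL27A had the largest ratio of these 8 hosts, 1763 FPKM at 18 h AHS and 1283 FPKM at no HS. At 0.5 h AHS the order differed: Uhg1 had 77.7 FPKM and Uhg5 39.8 FPKM, against 41.2 and 24.3 FPKM at no HS, and 5 of the 14 guides had a higher ratio than their host.

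**Figure D5:**
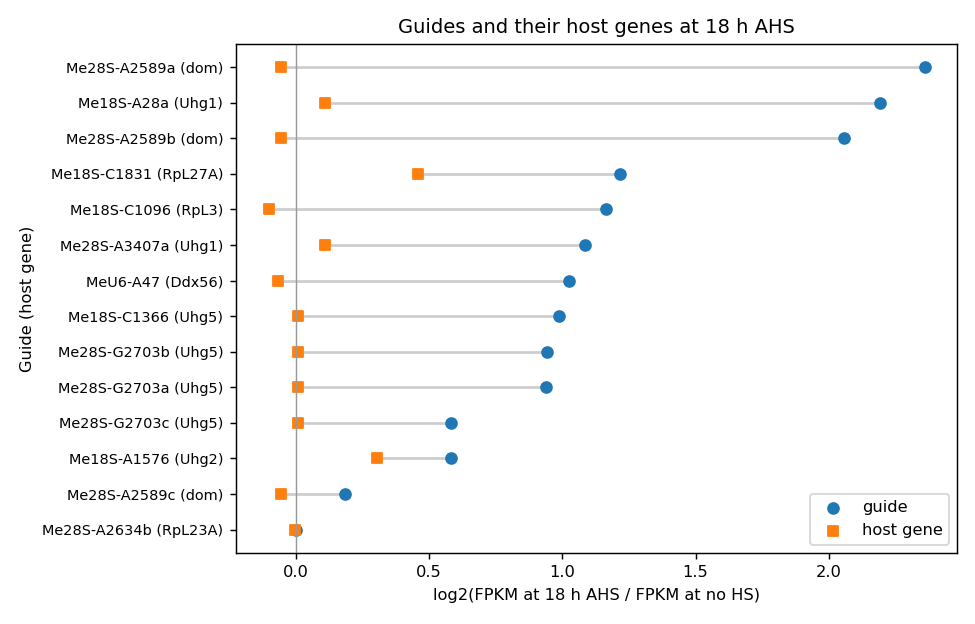
log2 ratio of FPKM at 18 h AHS to FPKM at no HS for the 14 guides above 0 throughout (circles) and their host genes (squares), 1 guide per row with the host in brackets. Every circle lies to the right of its square, by the least for Me28S-A2634b, where they almost coincide.

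The genes for the box C/D particle proteins passed no threshold. Fib, the methyltransferase Fibrillarin, had 180.1 FPKM at no HS, 164 (0.5 h), 191 (5 h), 168 (9 h), 154 (18 h), 156 (28 h) and 184 (38 h AHS). Of Fib, Nop56, nop5 and hoip, 0 of 4 were called in either direction at any later time point in the RNA-seq or the Ribo-seq. At 18 h AHS their log2 ratios to no HS lay between -0.22 and 0.11 in the RNA-seq and between -0.14 and 0.07 in the Ribo-seq. Of 3 assembly factors measured (pont, rept and spag), 0 were called in the RNA-seq. In the Ribo-seq 1 was called, spag, with 75.7 FPKM at 0.5 h AHS and 45.8 FPKM at no HS. The box H/ACA proteins Nop60B, NHP2, CG4038 and CG7637 likewise gave 0 of 4 calls at each later time point in both assays. The Ribo-seq table, with 13968 genes, holds 0 genes whose name begins with snoRNA.

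The FPKM minimum passes through the lowest guides. Just inside it were Me28S-C437 (highest value 10.2 FPKM), Me28S-C993 (13.9 FPKM) and Me28S-C1237 (14.4 FPKM). Just outside were MeU6-C68 (8.79 FPKM), Me18S-A627 (6.67 FPKM) and Me28S-U1688 (4.66 FPKM). Of the 52 genes with the prefix that missed the minimum, 45 were listed at 0 at all 7 time points.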

How the data were processed

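RNA-seq and Ribo-seq were made from whole ovaries in 14 libraries each, 2 per time point. For the RNA-seq, the authors sequenced paired-end 150 nt reads after RNase H depletion of rRNA, discarded with Bowtie2 those matching non-coding RNA, aligned what remained to dm6 with STAR and used Cuffdiff 2.2.1 for expression. The Ribo-seq reads were filtered with Bowtie. The deposited values are FPKM per gene and time point, pooled over both replicates, with 95% bounds, and no values per library enter here. Depth is unknown from FPKM, so precision was read from the bounds.

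Members, sums, calls and medians were computed with Python 3.11.15, numpy 2.4.6 and pandas 2.3.3. A call needs over 1.6-fold and over 10 FPKM. Medians over all members use log2 of FPKM plus a pseudocount of 1. The call rule was tested on simulated data made from well expressed genes, with small noise and no values at 0. The guides, with many listed zeros and wide bounds, differ from that setting, so the test does not bear on their calls. Sequences came from RefSeq Release 6 (pysam 0.24.0), introns from Ensembl release 115 and identities from global alignment (Biopython 1.88). Older symbols of hosts were matched through RefSeq synonyms.

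The members and lists were chosen with earlier results of these data known. Named were, per target, the 3 highest medians, the 2 largest called rises and falls at 18 and 38 h AHS among guides above 0 throughout, the 2 guides with the most zeros, guides with other targets, those next to the minimum and those called 1 way at all 5 time points from 5 h. Other guides named were chosen after their values were seen. Alternatives were another fold, minimum, pseudocount or scaling, the bounds, and leaving out zeros.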

Additional observations from a re-analysis of the deposited data

How the results depend on the processing

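No paired analysis was possible because the tables hold 1 value per time point, combined over both replicates, and for the same reason no replicate could be left out. With an FPKM minimum of 20 the number of guides was 47, and without 0.5 h AHS it was 49. Rescaling to the same median left every count and median within the tolerances (1.5 times for counts, 0.1 for log2 medians). Keeping only estimates with status OK could change nothing, since every estimate of the guides carries that status.

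Leaving out guides at 0, the calls higher against no HS were 2 (0.5 h), 3 (5 h), 3 (9 h), 13 (18 h) and 4 (38 h AHS), and the calls lower were 1, 3, 0, 1 and 4 at these times and 1 at 28 h. For the steps they were 13 higher and 0 lower at 18 against 9 h, 0 higher and 7 lower at 28 against 18 h, and 1 higher and 3 lower at 38 against 28 h AHS. Requiring bounds that do not overlap left 7 higher calls at 9 h, 10 (18 h), 0 (28 h) and 2 (38 h AHS), 10 higher at 18 against 9 h, 1 higher and 10 lower at 28 against 18 h, and 1 lower at 38 against 28 h. Both demands together, a choice made after the values were seen, left 1 higher call at 0.5 h, 1 (5 h), 0 (9 h), 3 (18 h), 0 (28 h) and 0 (38 h AHS), and 0, 0, 0, 0, 1 and 2 lower calls at these times, and in the steps 0 except for 1 lower at 28 against 18 h. For none of these altered rules, nor for the fold and minimum below, was a share over all genes computed. Whether these counts are unusual is therefore not known. A fold threshold of 2 left 5 higher calls at 38 h AHS, and a minimum of 20 left 3 higher calls at 38 against 28 h.

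Without a pseudocount, over guides above 0 at both time points, the median log2 change of the 18S guides was 0.55 (0.5 h), 0.11 (5 h), 0.24 (9 h), 0.99 (18 h) and 0.20 (28 h AHS), and of the 28S guides 0.18, -0.19, -0.12, 1.01 and 0.47. Over guides above 0 throughout, also chosen after the values were seen, it was 0.55, 0.47, 1.16, 0.54 and 0.36 at 0.5, 9, 18, 28 and 38 h AHS for 18S, and 0.25, -0.21, 0.94 and 0.36 at 0.5, 5, 18 and 28 h for 28S. A pseudocount of 10 gave 0.25 for 18S at 5 h AHS, where 1 gave 0.39. Without an FPKM minimum the median was 0 for 18S at 5 h and 0 for 28S at 18 h AHS. By construction, values at 0 leave or enter these medians. Depth cannot be read from FPKM, so whether a guide at 0 was below detection was not tested.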

Other observations

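Box C/D snoRNAs named by other schemes showed both patterns. Among 12 genes over 10 FPKM whose name begins with snoRNA:U, snoRNA:U49:66Da had 442 FPKM at no HS, 778 (0.5 h), 1147 (5 h), 1043 (9 h), 1374 (18 h), 974 (28 h) and 749.8 (38 h AHS), and snoRNA:U49:66Db had 24.1 FPKM at no HS and 62.8 to 114 FPKM at all later time points. snoRNA:U27:54Eb had 49.0 FPKM at 9 h AHS and was listed at 0 at the other 6. Among 8 orphan box C/D snoRNAs, snoRNA:Or-CD2 had the highest level, 20124 FPKM at 18 h AHS and 9178 FPKM at no HS, and snoRNA:Or-CD10 was highest at 38 h, with 2702 FPKM, and had 2464 FPKM at 18 h AHS. These genes were chosen after their values were seen.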
